A study of Mus musculus with 26 samples.

Results

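The core circadian clock genes described here are Arntl, Clock, Per1, Per2, Per3, Cry1, Cry2, Nr1d1, Nr1d2 and Dbp, taken by name from the 55401 genes of the count tables. All 10 were present in both tables and in all 10 groups of libraries, and all 10 passed the filter on low counts in every fit. The study sequenced RNA of dorsal root ganglia of mice from levels L4-L6, which hold the cell bodies of sensory neurons, and asked by its title how the aryl hydrocarbon receptor (AhR) bears on axon regeneration after injury. It holds 26 libraries. Every dissociation fell between ZT2 and ZT4, where ZT counts hours from lights on. The clock genes of ganglia were thus read at 1 window of the day, and their daily rhythm was not measured. For cultured neurons the window is that of dissociation, and their RNA was taken after 24 h in culture.

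The study compared a pair of genotypes. The conditional knockouts (cKO) were Ahr f/f Thy1-CRE(ERT2/EYFP), with a tamoxifen-dependent Cre driven by the Thy1 promoter, which is active in neurons and not in the glia of the ganglion. The controls carried floxed Ahr alleles without Cre, and were a mixture of Ahr fl/+ and Ahr fl/fl animals. In the naive and injured groups (3 mice per genotype each) both genotypes received tamoxifen at 100 mg/kg on each of 5 days from 28 weeks of age. Naive ganglia were taken 5 weeks after tamoxifen, and injured ganglia 1 day after a sciatic nerve crush done at that time. In each of these control groups replicates 1 and 2 were Ahr fl/+ and replicate 3 was Ahr fl/fl. A second table held semi-purified neurons kept for 24 h in culture (3 libraries per genotype, female, controls Ahr fl/fl) and ganglia of both sides 1 day after sham surgery (2 male mice per genotype, control 1 Ahr f/+ and control 2 Ahr fl/fl). Tamoxifen and age are not given for the second table in the sources used here.

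The mammalian clock is a feedback loop of transcription. ARNTL (BMAL1) and CLOCK form a heterodimer that binds E-box elements and drives the Per and Cry genes, the Rev-erb genes Nr1d1 and Nr1d2, and output genes such as Dbp. PER and CRY proteins return to the nucleus and repress that heterodimer, while REV-ERB proteins repress Arntl and Clock through ROR response elements, where the ROR proteins activate. DBP activates genes with D-box elements, Per3 among them. AhR belongs to the same bHLH-PAS family as ARNTL and CLOCK, and can pair with ARNTL. Sensory ganglia hold a clock of their own, in neurons and in satellite glia.

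The promoters of the members show these elements to different extents. RefSeq promoters of 300 bases (250 before and 50 after the transcript start, GRCm38.p6) were matched by symbol for 9 of the 10 members (all but Per2), as 13 windows. Motifs were searched on both strands: the E-box CACGTG, the D-box TTATGTAA or TTACGTAA, the cAMP response element TGACGTCA, the ROR element core TAGGTCA or TGGGTCA, and the AhR core GCGTG. Among 32817 promoters of that length, 7.15% held the E-box, 1.05% the D-box, 1.79% the cAMP response element, 6.46% the ROR element core and 32.4% the AhR core. Positions count from the first transcribed base as 1, with bases before it negative. The 4 windows below are shown because they hold the elements of the loop, in capitals.
Arntl: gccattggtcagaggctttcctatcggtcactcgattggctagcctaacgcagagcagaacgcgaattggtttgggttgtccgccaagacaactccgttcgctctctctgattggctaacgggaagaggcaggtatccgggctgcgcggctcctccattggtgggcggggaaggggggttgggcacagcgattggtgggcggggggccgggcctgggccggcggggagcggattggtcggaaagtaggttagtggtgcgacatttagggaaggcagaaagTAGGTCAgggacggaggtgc
Per1: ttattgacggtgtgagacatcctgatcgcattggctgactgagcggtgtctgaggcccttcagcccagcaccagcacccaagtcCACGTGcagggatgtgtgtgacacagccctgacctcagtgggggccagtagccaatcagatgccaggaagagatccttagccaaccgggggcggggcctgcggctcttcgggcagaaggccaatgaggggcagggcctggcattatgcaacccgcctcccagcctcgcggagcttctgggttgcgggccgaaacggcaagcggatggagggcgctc
Cry1: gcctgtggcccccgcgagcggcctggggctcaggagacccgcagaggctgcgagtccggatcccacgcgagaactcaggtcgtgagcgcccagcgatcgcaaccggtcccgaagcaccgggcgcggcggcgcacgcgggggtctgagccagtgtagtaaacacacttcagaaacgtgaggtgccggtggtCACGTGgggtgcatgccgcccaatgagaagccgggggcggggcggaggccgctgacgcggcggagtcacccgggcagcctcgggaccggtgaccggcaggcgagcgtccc
Per3: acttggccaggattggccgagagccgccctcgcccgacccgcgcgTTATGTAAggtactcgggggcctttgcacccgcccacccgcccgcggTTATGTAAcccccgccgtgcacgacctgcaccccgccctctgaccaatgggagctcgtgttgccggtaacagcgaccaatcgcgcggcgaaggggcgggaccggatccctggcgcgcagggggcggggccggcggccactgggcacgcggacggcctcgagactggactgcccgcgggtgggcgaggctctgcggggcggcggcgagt
The Arntl window (chr7:113207261-113207560, plus strand) held 1 ROR element core starting at position 31. The Per1 window (chr11:69098699-69098998, plus strand) held 1 E-box at -166. The Cry1 window (chr10:85185005-85185304, minus strand) held 1 E-box at -60. The Per3 window (chr4:151044616-151044915, minus strand) held 2 D-boxes, at -205 and -158. No E-box, D-box, cAMP response element or ROR element core was in the windows of Clock, Cry2, Nr1d1, Nr1d2 and Dbp, which says only that these letters are not in those 300 bases. The AhR core was in 9 of the 13 windows and in 8 of the 9 members, Arntl being the exception. A match is a description of the sequence and shows no binding.

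Libraries of the naive and injured groups held 20169388 to 23540375 counts, those of sham ganglia 39306414 to 58751270, and those of cultured neurons 25299938 to 88180611. Atf3, a transcription factor induced by nerve injury, stood at 11 to 17.3 CPM, the read count scaled to library size, in naive ganglia and 526 to 769 CPM after crush. Ahr, the targeted gene, did not pass the test between cKO and control in any of the 5 settings, with log2 fold changes from -0.05 in cultured neurons (49.6 ± 4.91 CPM in controls against 48.6 ± 6.48 in cKO; SD, n = 3 each) to 0.17 in naive ganglia (22.2 ± 2.87 against 25.0 ± 2.80 CPM; SD, n = 3 each). Thy1, whose promoter drives the Cre, was higher in every cKO library than in any control of the same setting, with log2 fold changes from 0.51 to 1.01, and passed in naive and injured ganglia (edgeR, adjusted p = 0.00191 and 0.00521). Counts over the whole Ahr gene do not show a deletion of part of it, so the labels cKO and control are used as given. In 2 of the 26 libraries the transcripts did not match the labelled sex: injured control 3, labelled male, was female by transcripts, and injured cKO 2, labelled female, was male. By transcripts, all 6 naive libraries and 4 of the 6 injured ones were female. In bulk libraries fewer cells of a type and less RNA per cell cannot be told apart.

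In naive control ganglia the members differed widely in level. On the scale of CPM per kilobase of exon Nr1d1 was highest at 27.7 ± 0.507 (SD, n = 3). Cry2 followed at 15.1 ± 0.948, Nr1d2 at 12.1 ± 1.35 and Clock at 10.3 ± 0.480. A middle group was formed by Per1 (3.62 ± 1.76), Dbp (3.44 ± 0.381) and Cry1 (3.28 ± 0.302), whose levels lay within the spread of Per1. Per2 (0.932 ± 0.110), Arntl (0.720 ± 0.142) and Per3 (0.318 ± 0.0564) were lowest, Per3 below Arntl in every library. At ZT2 to ZT4 the Rev-erb genes were far above Arntl on this scale, and in CPM as well (Nr1d1 85.1, Nr1d2 65.6, Arntl 5.41). The deposited length-scaled values divide by the whole gene span, so counts may also hold reads of introns. The order of genes therefore holds on this scale and is not a secure ranking of transcript levels. Arntl, Clock, Cry2, Nr1d1 and Dbp share parts of their spans with another gene, and the strand setting of the counting is not given in the sources used here. Tsix and Xist, which overlap, had equal counts in 16 female libraries, so reads in shared stretches appear to be counted for both genes. Arntl overlaps the antisense Gm45355 on the opposite strand over 2394 bases, at 0% to 8.05% of its counts. Clock, on chromosome 5 from 76209868 to 76304792, contains the pseudogene Ube2n-ps1 on its own strand, which had up to 27.0% as many counts as Clock. Cry2 (chromosome 2, 92403646 to 92434043) overlaps the noncoding D930015M05Rik on the opposite strand over 23417 bases. Nr1d1 (chromosome 11, 98767932 to 98775333) overlaps the end of Thra over 1075 bases, and Dbp (chromosome 7, 45705088 to 45710203) overlaps Sphk2 over 737 bases, both on the opposite strand. These coordinates are of GRCm38.

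At 1 day after crush, 6 of the 10 clock genes had changed when both genotypes were averaged (6 injured against 6 naive libraries). Arntl fell, while Per1, Dbp, Per2, Cry2 and Clock rose. The naive mice had no surgery, so surgery and nerve injury cannot be told apart in this comparison. Across all 21261 genes tested 34.1% passed the same test, 18.4% higher and 15.7% lower. The median log2 fold change was 0.15 over the members and -0.02 over all genes. In 3 members, Per1, Cry2 and Dbp, the 6 injured and the 6 naive libraries did not overlap, as in 19.3% of all genes. Since every naive mouse was female, the fit with sex by transcripts as a covariate takes the effect from female mice alone, which for cKO leaves injured cKO 1 as the single injured mouse. The averaged value then rests on that 1 mouse for its cKO side, with the spread taken from the other groups. There Arntl gave -0.75, Dbp 0.70, Per2 0.70, Cry2 0.29 and Clock 0.14, all past the threshold, and Per1 0.76, which was not.

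**Figure D1:**
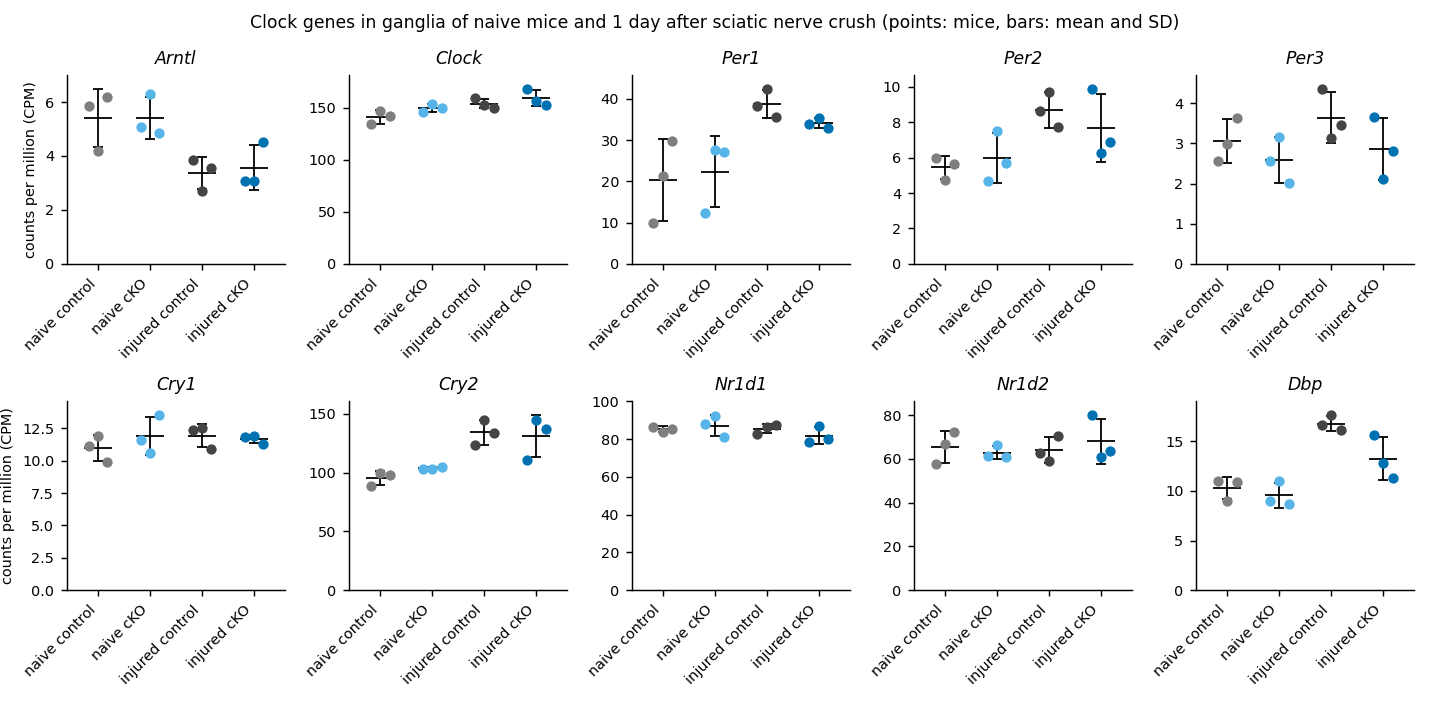
Level of each clock gene (vertical axis, CPM, starting at 0) in the 12 ganglia libraries of naive and injured mice; each point is 1 mouse in order of replicate number, and bars show the mean and SD of 3 mice. Arntl points of injured mice lie mostly below those of naive mice, Per1, Cry2 and Dbp points of injured mice lie above all naive ones, and both Per1 points of naive replicate 1 lie below the other naive points.

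Arntl, which encodes the partner of CLOCK in the activating heterodimer, was the 1 member that fell. Naive controls read 5.84, 4.20 and 6.20 CPM and injured controls 3.87, 2.71 and 3.54 CPM. Naive cKO ganglia read 5.06, 6.28 and 4.84 CPM and injured cKO ganglia 3.08, 3.09 and 4.53 CPM. Within each genotype every injured library lay below every naive one, and across genotypes only injured cKO 3 reached above the lowest naive library, naive control 2. The mean over genotypes fell by 0.64 on the log2 scale (SE 0.142, edgeR quasi-likelihood test, adjusted p = 0.00424), a fold of 0.643. In controls alone the change was -0.68 (SE 0.201, adjusted p = 0.0300), and this call was lost without naive control 1, naive control 3, injured control 2 or injured control 3 (-0.63, -0.57, -0.55 and -0.72, adjusted p 0.0587 to 0.116), without the 2 libraries not of their labelled sex (-0.73, adjusted p = 0.0603) and without both naive libraries numbered 1 (-0.63, adjusted p = 0.0976). In cKO alone it was -0.59 (SE 0.2, adjusted p = 0.0603), and passed without injured cKO 3 (-0.81, adjusted p = 0.0226) and with labelled sex as a covariate (-0.73, adjusted p = 0.0306). Averaged over genotypes it was called in all 20 alternatives, with log2 fold changes from -0.76 to -0.58.

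Clock, the second activator, moved little. It read 134 to 147 CPM in naive controls, 146 to 154 in naive cKO, 150 to 159 in injured controls and 153 to 168 CPM in injured cKO. The averaged log2 fold change was 0.11 (SE 0.0374, edgeR, adjusted p = 0.0457), a rise of 1.08-fold that was lost in 17 of 21 alternatives, among them each of those leaving out 1 library other than naive control 2 (adjusted p 0.0548 to 0.152). With the counts of Ube2n-ps1 subtracted it was 0.11 with adjusted p = 0.0631.

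The Per genes encode repressor subunits of the loop, and Per1 and Per2 are also induced directly by signals from outside the clock. Per1 read 10, 21.4 and 29.8 CPM in naive controls, 38.2, 42.4 and 35.7 CPM in injured controls, 12.4, 27.6 and 27.1 CPM in naive cKO and 33.9, 35.4 and 33.0 CPM in injured cKO. All 6 injured libraries lay above all 6 naive ones, and the naive level varied widely, with replicate 1 of both naive groups lowest. The averaged log2 fold change was 0.76 (SE 0.230, edgeR, adjusted p = 0.0224). Without both naive libraries numbered 1 it was smaller and more precise, 0.46 with adjusted p = 0.00280. The call was lost without injured control 2 (0.72, adjusted p = 0.0528), without the 2 libraries not of their labelled sex (0.77, adjusted p = 0.0640) and with sex by transcripts as a covariate (0.76, adjusted p = 0.0780). Neither genotype passed alone, controls at 0.92 (SE 0.325, adjusted p = 0.0630) and cKO at 0.61 (SE 0.325, adjusted p = 0.237). Leaving out 1 library at a time moved the value in controls from 0.60 without naive control 1 to 1.3 without naive control 3, where it passed (adjusted p = 0.0226), and the value in cKO from 0.31 without naive cKO 1 to 0.77 without naive cKO 2. The value in controls also passed with no filter on low counts (0.92, adjusted p = 0.0486), with a replicate block (1.01, adjusted p = 0.0311) and without both naive libraries numbered 1 (0.60, adjusted p = 0.00789).

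Per2 read 5.98, 4.74 and 5.66 CPM in naive controls and 8.60, 9.71 and 7.70 CPM in injured controls, with no overlap. In cKO the naive libraries read 4.69, 7.47 and 5.70 CPM and the injured ones 9.86, 6.28 and 6.86 CPM, and these overlapped. The averaged log2 fold change was 0.52 (SE 0.137, edgeR, adjusted p = 0.0119) and was called in all 20 alternatives (0.40 to 0.70). In controls it was 0.67 (SE 0.194, adjusted p = 0.0286), a call that was lost without naive control 2, naive control 3, injured control 1 or injured control 2 (0.57, 0.69, 0.67 and 0.57, adjusted p 0.0643 to 0.113). In cKO it was 0.37 (SE 0.194, adjusted p = 0.231), and ran from 0.13 without injured cKO 1 to 0.55 without naive cKO 2. With sex by transcripts as a covariate, where injured cKO 1 is the single female injured cKO library, it was 0.73 (adjusted p = 0.0745). Per3, the third member of the family and the one with 2 D-boxes in its promoter window, was low throughout (2.02 to 4.35 CPM in the 12 libraries) and gave 0.20 (95% interval -0.15 to 0.55, adjusted p = 0.364), too wide an interval to show whether it changed.

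The cryptochromes, which form the repressor complex with the PER proteins, differed from each other. Cry2 read 88.6, 99.9 and 97.7 CPM in naive controls and 124, 145 and 134 CPM in injured controls. In cKO it read 103, 103 and 105 CPM before and 111, 145 and 137 CPM after crush. All injured libraries lay above all naive ones, by the smallest margin in injured cKO 1. The averaged log2 fold change was 0.42 (SE 0.0649, edgeR, adjusted p = 3.82e-04), called in all 20 alternatives, with a lowest value of 0.29 when sex by transcripts was a covariate. Controls alone gave 0.49 (SE 0.0919, adjusted p = 0.00251). The cKO mice alone gave 0.34 (SE 0.0918, adjusted p = 0.0222). With sex by transcripts as a covariate the value in cKO alone was 0.10 (adjusted p = 0.618), which compares the naive libraries with the single female injured one, injured cKO 1, the lowest of the injured libraries. The call in cKO alone was lost without any 1 of naive cKO 1, 2 or 3 or injured cKO 2 or 3 (0.33, 0.32, 0.34, 0.25 and 0.30, adjusted p 0.0629 to 0.109), without the 2 libraries not of their labelled sex (0.26, adjusted p = 0.148) and without both naive libraries numbered 1 (0.34, adjusted p = 0.0578). D930015M05Rik, which overlaps Cry2 on the other strand at 12.3% to 34.4% of its counts, rose as well (0.35, SE 0.0549, adjusted p = 3.82e-04). Reads in the stretch they share appear to be counted for both genes, and their part in either value was not tested. Cry1 stayed between 9.88 and 13.5 CPM in all 12 libraries, with a log2 fold change of 0.05 (95% interval -0.11 to 0.21, adjusted p = 0.646).

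The Rev-erb genes did not pass the test. Nr1d1 read 81.3 to 92.0 CPM in naive and 78.6 to 87.3 CPM in injured libraries, a log2 difference of -0.04 with a 95% interval of -0.13 to 0.05 (edgeR, adjusted p = 0.459). Thra, which shares 1075 bases with Nr1d1 on the other strand and had 140% to 421% as many counts, fell by 0.30 on the log2 scale (SE 0.0315, adjusted p = 1.69e-05). Nr1d2 gave 0.04 (95% interval -0.13 to 0.21, adjusted p = 0.718), with injured cKO 1 the highest library at 79.9 CPM.

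Dbp, an output gene of the loop, rose in both genotypes. With 1 window of the day, a change of its mean level and a change of its rhythm cannot be told apart. It read 11, 8.99 and 10.9 CPM in naive controls and 16.6, 17.6 and 16.1 CPM in injured controls, and 9.01, 11 and 8.70 CPM in naive cKO against 15.6, 12.8 and 11.3 CPM in injured cKO. No injured library overlapped a naive one. The averaged log2 fold change was 0.58 (SE 0.0920, edgeR, adjusted p = 4.11e-04), a 1.5-fold rise called in all 20 alternatives (0.51 to 0.70). Controls alone gave 0.70 (SE 0.129, adjusted p = 0.00224). The cKO mice alone gave 0.46 (SE 0.131, adjusted p = 0.0283). The call in cKO was lost without naive cKO 1, naive cKO 3, injured cKO 1 or injured cKO 2 (0.41, 0.39, 0.31 and 0.48, adjusted p 0.0661 to 0.123), without the 2 libraries not of their labelled sex (0.48, adjusted p = 0.0812) and without both naive libraries numbered 1 (0.42, adjusted p = 0.0966). Sphk2, whose span overlaps Dbp on the other strand, had 430% to 1170% as many counts as Dbp and gave 0.12 (SE 0.0529, adjusted p = 0.112).

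**Figure D2:**
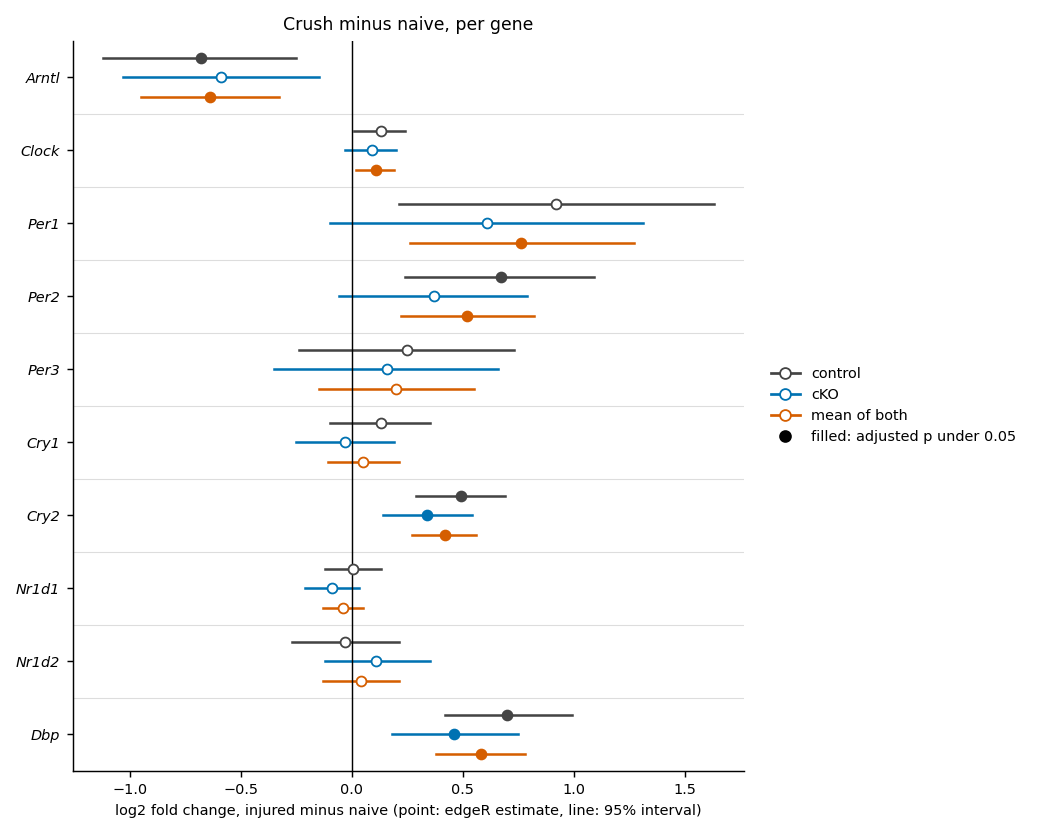
Log2 fold change of each clock gene after crush (horizontal axis, injured minus naive; points are edgeR estimates, lines 95% intervals) in controls, in cKO and averaged over both; filled points passed an adjusted p under 0.05. Arntl lies left of 0 at -0.64 on average, Per1, Per2, Cry2 and Dbp lie right of it at 0.42 to 0.76, and the intervals of Nr1d1, Nr1d2, Cry1 and Per3 cross 0.

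By genotype, 4 of 10 members passed in controls (Arntl lower; Per2, Cry2 and Dbp higher) where 21.6% of all genes did, 12.9% higher and 8.73% lower. In cKO 2 of 10 passed (Cry2 and Dbp, both higher) where 18.6% of genes did, 10.7% higher. The count was 2 in controls without injured control 2, and in cKO it was 0 without naive cKO 1, naive cKO 3 or injured cKO 2 and 1 without naive cKO 2 or injured cKO 1. With labelled sex as a covariate 3 passed in cKO, Arntl being added. The difference between the crush responses was itself tested and passed for 0 of the 10 members and 0% of the 21261 genes (edgeR; 0 members at an unadjusted p under 0.05 against 2.95% of genes; 0 members by DESeq2). Its estimates were -0.32 for Per1, -0.30 for Per2 and -0.24 for Dbp, with 95% intervals of -1.32 to 0.68, -0.90 to 0.30 and -0.64 to 0.16, so the calls in controls and not in cKO do not show that the responses differ. With 1 library left out the estimates ran from -0.70 without naive control 3 to 0.007 without naive control 1 for Per1, from -0.53 without injured cKO 1 to -0.11 without naive cKO 2 for Per2, and from -0.38 to -0.13 without the same 2 libraries for Dbp. With sex by transcripts as a covariate they were -0.32 for Per1, 0.06 for Per2 and -0.005 for Dbp. The comparisons of each genotype share no library, but both enter the average.

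Other measured quantities moved with crush beside the clock genes. The counts of this paragraph stand against 18.4% of all genes higher and 15.7% lower in the same test. In a list of 11 glucocorticoid-responsive genes 6 rose (Fkbp5, Klf9, Cdkn1a, Mt1, Mt2 and Dusp1) and 0 fell, and the summed level of the list was 640 to 848 CPM in naive, 988 to 1080 CPM in injured control and 857 to 967 CPM in injured cKO libraries. Of 6 immediate early genes Crem and Arc rose by 1.10 and 1.11 on the log2 scale, Fosb fell by 0.53, and Fos, Egr1 and Nr4a1 did not pass. Markers of neurons summed to 5580 to 6730 CPM in naive controls, 5820 to 6620 CPM in naive cKO, 5540 to 5990 CPM in injured controls and 5720 to 6700 CPM in injured cKO, with 0 of 8 higher and 2 of 8 lower after crush. Of 5 satellite glia markers 1 was higher and 1 lower, of 4 Schwann cell and 6 macrophage markers none was called, and of 5 endothelial and 5 fibroblast markers 1 each was lower. All 5 fibroblast markers had values below 0 (median -0.42), with sums of 546 to 1030 CPM in naive and 509 to 786 CPM in injured libraries. All 4 T cell and neutrophil markers were below 0 as well (median -0.95, 1 of them called), with sums of 97.1 to 586 CPM in naive and 87.5 to 337 CPM in injured controls, which overlapped, and of 162 to 306 CPM in naive and 48.7 to 111 CPM in injured cKO, which did not. Of 4 skeletal muscle markers none was called. No marker gene of these lists was at 0 counts in any group. The part of these in the clock gene values was not tested.

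Between cKO and control no clock gene passed the test in any of the 5 settings. In naive ganglia 0 of 10 were called (edgeR; 0.00941% of all genes; 0 members at an unadjusted p under 0.05 against 5.79% of genes; 0 by DESeq2), with log2 fold changes from -0.25 (Per3) to 0.13 (Per1). In injured ganglia 0 of 10 were called (0.00941% of genes; 0 by DESeq2) and 1, Dbp, had an unadjusted p under 0.05, against 2.72% of genes. Dbp was 16.8 ± 0.780 CPM in injured controls and 13.2 ± 2.18 CPM in injured cKO (SD, n = 3 each), with a log2 fold change of -0.35 (95% interval -0.62 to -0.07, adjusted p = 1). Every cKO library lay below every control for Dbp and for Per1 (-0.19), as in 4.56% of all genes. With sex by transcripts as a covariate, which separates injured cKO 1 from the other 2 mice of its group, the Dbp value was -0.11. With 1 library left out it ran from -0.49 without injured cKO 1 to -0.24 without injured cKO 3. In the same comparison 10 of 11 glucocorticoid-responsive genes were below 0, where 50.2% of all genes were, and 3 of them (Fkbp5, Mt1 and Mt2) had an unadjusted p under 0.05. Of 4 T cell and neutrophil markers 3 had an unadjusted p under 0.05, S100a8 (-1.53) and S100a9 (-1.63) below 0 and Cd3e (1.15) above it, and all 5 fibroblast markers were below 0 (median -0.47). All 6 macrophage markers (median -0.27) and all 4 skeletal muscle markers (median -0.34) were below 0 as well. Of the other lists 3 of 8 neuronal, 1 of 5 satellite glia, 3 of 4 Schwann cell and 2 of 5 endothelial markers were below 0. None of these genes and markers passed, and their part in the Dbp value was not tested.

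In cultured neurons all 10 members had a log2 fold change below 0 in cKO, where 50.8% of all genes did. None passed (edgeR; 0% of genes; 0 members by DESeq2), and 3 of 10 had an unadjusted p under 0.05 against 8% of genes. These were Per2 (19.4, 22 and 18.8 CPM in controls against 17.7, 14.9 and 16.2 CPM in cKO), Per3 (3.34, 4.43 and 3.42 against 2.36, 3.05 and 2.64 CPM) and Nr1d2 (77.3, 72.8 and 73.0 against 62.7, 69.3 and 68.0 CPM). In each of the 3 every cKO library lay below every control library, as in 6.7% of all genes. On the log2 scale Per2 was at -0.32 (SE 0.0958, edgeR, adjusted p = 0.538), Per3 at -0.50 (SE 0.163, adjusted p = 0.554) and Nr1d2 at -0.18 (SE 0.0724, adjusted p = 0.605). The other 7 ranged from -0.17 (Cry1) to -0.02 (Arntl), and Arntl and Cry2 turned positive when single libraries were left out (up to 0.02 and 0.01). Since the 10 genes regulate each other and were measured in the same 6 libraries, their common sign is not 10 observations. Beside this, all 4 Schwann cell markers had values below 0 in cKO neurons (-0.37 to -0.12), and their sum did not overlap between genotypes, at 550 to 582 CPM in cKO against 604 to 677 CPM in control cultures. All 5 endothelial markers were also below 0, with overlapping sums of 931 to 1040 CPM and 1000 to 1380 CPM. Of 6 macrophage markers 5 were above 0 (median 0.36), with sums of 39.3 to 54.9 CPM in cKO and 33.6 to 43.1 CPM in controls. Of 4 T cell and neutrophil markers the 2 tested, S100a8 and S100a9, were at 1.24 and 1.22, with overlapping sums of 32.9 to 107 CPM in cKO and 9.02 to 55.4 CPM in controls. No marker of these lists passed the test, and their part in the clock gene values was not tested.

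**Figure D3:**
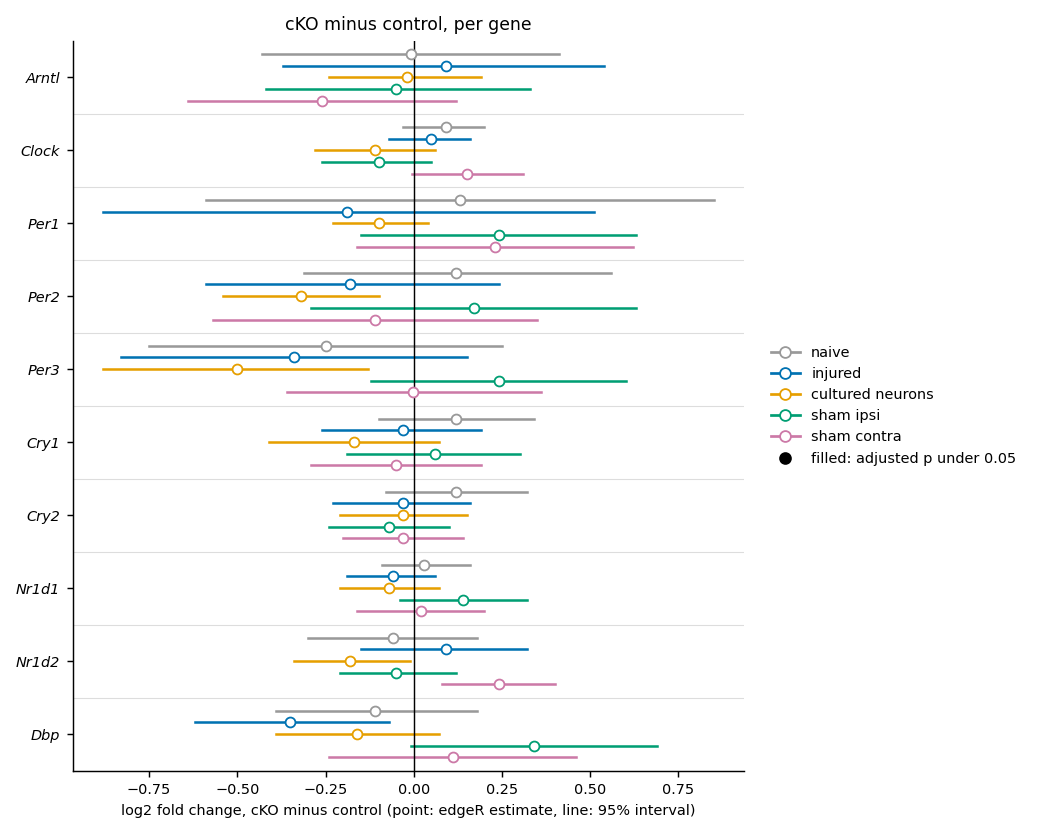
Log2 fold change between cKO and control for each clock gene (horizontal axis; points are edgeR estimates, lines 95% intervals) in naive and injured ganglia, cultured neurons and both sides of sham-operated mice; no point is filled, since none passed an adjusted p under 0.05. The values of cultured neurons lie left of 0 for all 10 genes, from -0.50 for Per3 to -0.02 for Arntl, and those of Dbp run from -0.35 in injured ganglia to 0.34 in sham ipsilateral ganglia.

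After sham surgery 0 of 10 members differed between genotypes on the operated side (edgeR; 0.00451% of genes) and 0 of 10 on the other side (0% of genes), with 0 by DESeq2 on both. At an unadjusted p under 0.05 there were 0 members on the operated side (7.59% of genes) and 1 on the other side (5.23% of genes), Nr1d2, at 37.8 and 39.0 CPM in cKO against 32.1 and 33.3 CPM in controls. Between the operated and the other side, averaged over genotypes, 0 of 10 members passed (edgeR; 0.00451% of genes; 0 members at an unadjusted p under 0.05 against 7.56% of genes; 0 by DESeq2). The side differences ran from -0.04 (Per3 and Nr1d2) to 0.19 (Arntl, 95% interval -0.07 to 0.46). Dbp differed by 0.08 between the sides (95% interval -0.17 to 0.33), Cry2 by 0.03 (-0.09 to 0.15), Per1 by 0.16 (-0.12 to 0.43) and Per2 by -0.03 (-0.36 to 0.29). Atf3 was at 42.4 to 181 CPM on the operated side and 10.3 to 12.4 CPM on the other, without overlap, and did not pass either (3.23, 95% interval 2.25 to 4.21, adjusted p = 0.147). Both sham sides come from the same mice, so an effect of surgery that reaches both sides alike would not show between them. The crush and the sham libraries are in different tables, from mice mostly of different sex, so the crush and sham effects were not set against each other by a test. Of the sham ipsilateral cKO libraries 1 held 1530 CPM of skeletal muscle markers and the other 16.3 CPM.

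Cultured neurons stood apart from whole ganglia in most clock genes. Set against contralateral sham ganglia of the same table, 8 of 10 members were higher and none lower, where 75.5% of all 24192 genes passed (39.1% of all genes higher and 36.4% lower), so being called there is the common case. Per1 stood at 115 ± 5.77 CPM in neurons (SD, n = 6) and 27.0 ± 3.58 in contralateral ganglia (SD, n = 4), 2.09 higher on the log2 scale (SE 0.0958, edgeR, adjusted p = 1.01e-09). Arntl stood at 15.4 ± 0.918 against 4.26 ± 0.592 CPM, 1.86 higher (SE 0.0944, adjusted p = 2.46e-09). Cry1, which did not pass after crush, was 42.1 ± 4.34 against 13.8 ± 0.806 CPM, 1.60 higher (SE 0.0759, adjusted p = 1.33e-09). The activator Arntl and the repressors Per1 and Cry1 were thus the 3 members with the greatest difference, and Arntl lay in the opposite direction to its change after crush. Per2 (1.11), Nr1d2 (0.99), Clock (0.83), Cry2 (0.38) and Nr1d1 (0.33) were also higher. Dbp, at 9.84 ± 0.855 against 11 ± 1.35 CPM, gave -0.16 (95% interval -0.36 to 0.04, adjusted p = 0.133). Its call depended on single mice, being -0.33 without sham cKO 1 (adjusted p = 0.0101) and -0.28 without sham control 2 (adjusted p = 0.0265). Per3 gave 0.13 (95% interval -0.13 to 0.38, adjusted p = 0.341).

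In order of level, the neuron groups came first for each of Arntl, Clock, Per1, Per2, Cry1, Cry2, Nr1d1 and Nr1d2, and no neuron library of these genes overlapped the sham group next in order. The 4 sham groups below them mostly overlapped with their neighbours, the exceptions being 1 step each in Arntl, Clock and Nr1d2. For Dbp the order was sham ipsilateral cKO (13.0 CPM), sham contralateral cKO (11.4 CPM), sham contralateral control (10.6 CPM), both control neurons and sham ipsilateral control (10.3 CPM) and cKO neurons (9.35 CPM), each overlapping the next except the first step. For Per3 only control neurons (3.73 CPM) lay apart from the group next in order. The label of semi-purified neurons was checked against markers: all 8 neuronal markers were lower in the cultures than in the ganglia (3170 to 3710 CPM summed against 7210 to 7950 CPM), Schwann cell markers summed to 550 to 677 CPM against 1990 to 3010 CPM, and 5 of 5 endothelial markers were higher (931 to 1380 CPM against 70.0 to 126 CPM). These markers did not show an enrichment of neurons, so the values given for neurons are those of the cultures as a whole. Culture, the 24 h since seeding, purification, sex and mice all changed between these groups and cannot be told apart. The state of the daily rhythm in the cultures was not measured. Atf3 stood at 745 to 848 CPM in the cultures against 10.3 to 12.4 CPM in contralateral ganglia. Against 39.1% of all genes higher and 36.4% lower, 8 of 11 glucocorticoid-responsive genes were higher and 3 lower in the cultures, and 6 of 6 immediate early genes were higher.

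**Figure D4:**
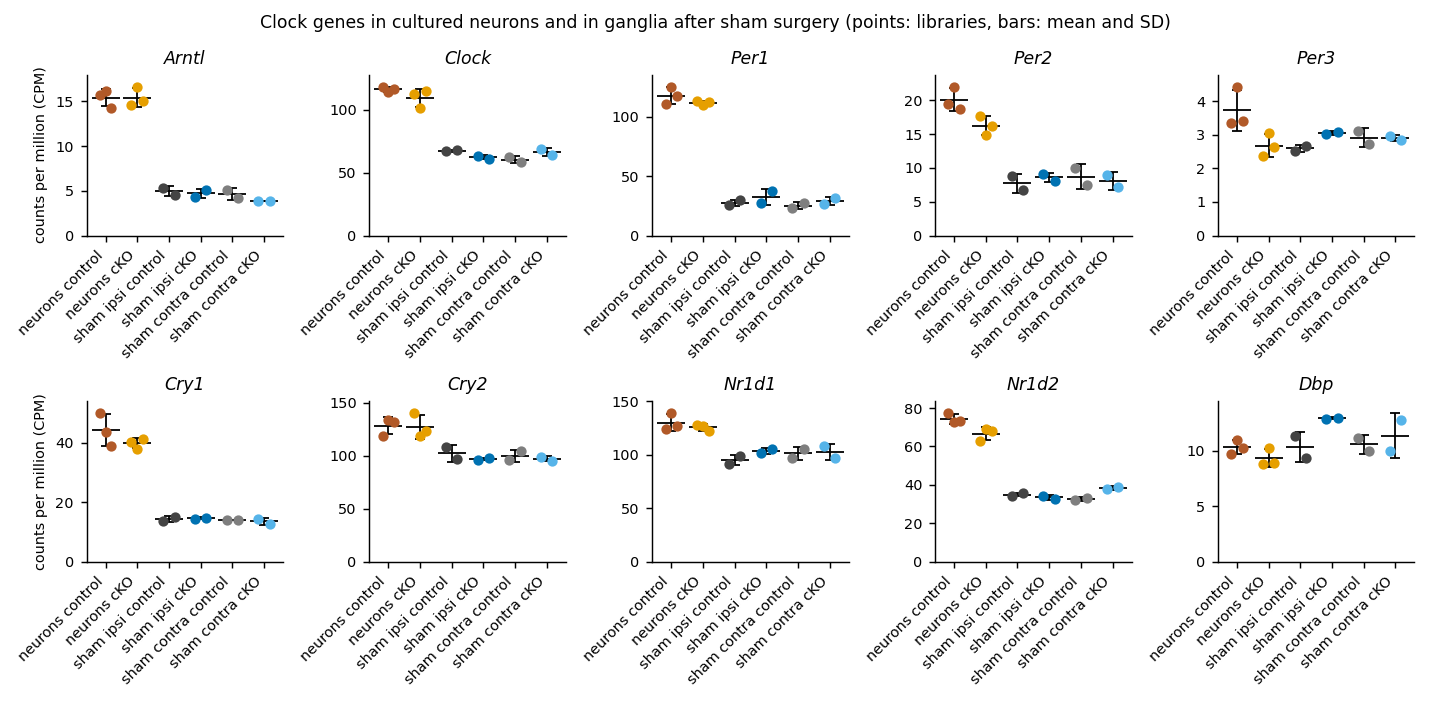
Level of each clock gene (vertical axis, CPM, starting at 0) in cultured neurons (3 libraries per genotype) and in ganglia of both sides after sham surgery (2 mice per genotype); points are libraries and bars the mean and SD. Per1, Arntl and Cry1 points of neurons lie far above all ganglia points, while Dbp and Per3 points overlap.

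Around the core members, 19 further genes of the clock pathway were read from a list, 18 of them tested in ganglia. After crush, averaged over genotypes, 7 rose and 2 fell, against 18.4% and 15.7% of all genes, and the median log2 fold change was -0.02. Nfil3, the repressor that competes with DBP at D-boxes, rose by 1.91 on the log2 scale (SE 0.127, edgeR, adjusted p = 5.72e-07), from 11.4 ± 1.90 to 42.9 ± 6.50 CPM (SD, n = 6 each). Bhlhe41, a repressor that acts at E-boxes, rose from 50.7 ± 4.78 to 126 ± 9.14 CPM (1.31, SE 0.0578, adjusted p = 2.33e-08). Rora, the activator at ROR elements, rose from 27.8 ± 2.19 to 44.3 ± 2.06 CPM (0.67, SE 0.0573, adjusted p = 3.84e-06). All 3 had no overlap between injured and naive libraries, as 7 of the 18 tested genes of the list and 19.3% of all genes. Smaller rises were those of Ciart (0.61), Timeless (0.48), Fbxw11 (0.45) and Nono (0.28). Npas2, which can take the place of CLOCK as the partner of ARNTL, fell by 0.57 (adjusted p = 0.00536), and Wee1, a cell cycle kinase under clock control, fell by 0.50 (adjusted p = 0.00890). Wee1 shares 21241 bases with 1600010M07Rik on the opposite strand, which had 821% to 3860% as many counts, and Ciart shares 3749 bases with C920021L13Rik on the opposite strand, at 174% to 438% of its counts. Reads in these stretches appear to be counted for both genes, and their part in the values of Wee1 and Ciart was not tested. Tef and Hlf, the other D-box activators of the family of DBP, gave -0.10 and -0.27 and did not pass (adjusted p = 0.147 and 0.497).

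In cultured neurons against contralateral sham ganglia 12 of the 19 were higher and 5 lower, where 39.1% and 36.4% of all genes were. Nfil3 was again the highest (71.0 ± 3.45 against 8.71 ± 1.33 CPM, 3.03, adjusted p = 7.74e-10). Hlf (-1.31) and Tef (-0.53) were lower, so Tef and Hlf lay below 0 beside a Dbp that did not pass. Bhlhe40, the partner repressor of Bhlhe41, was 1.66 higher in the cultures and 0.19 after crush (adjusted p = 0.123 for the latter). Between cKO and control 0 of the 18 or 19 tested passed in any of the 5 settings (edgeR), with 0 at an unadjusted p under 0.05 in naive, injured, sham operated and sham contralateral ganglia (5.79%, 2.72%, 7.59% and 5.23% of all genes) and 3 in cultured neurons (8% of all genes). Between the sham sides 0 of the 18 tested passed (edgeR), and 5 had an unadjusted p under 0.05 against 7.56% of all genes. These were Nfil3 (0.66), Timeless (0.46), Bhlhe41 (0.39) and Bhlhe40 (0.26), with values above 0 on the operated side, and Tef (-0.09), at adjusted p 0.238 to 0.639.

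**Figure D5:**
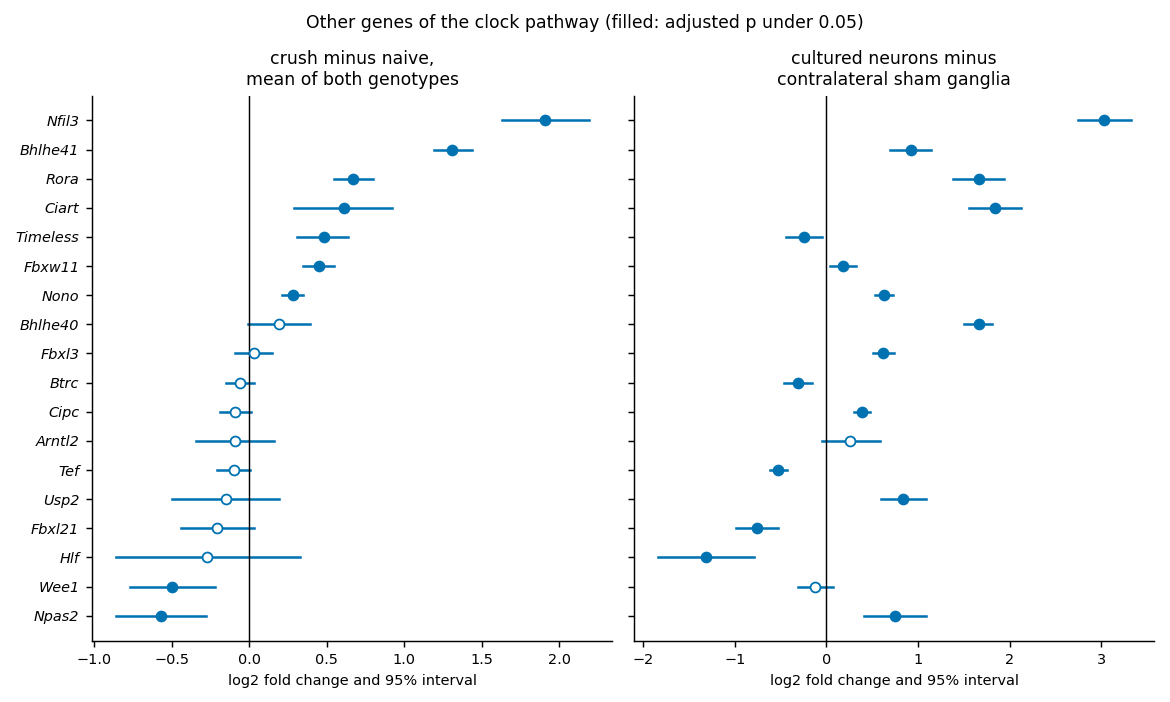
Log2 fold change and 95% interval of the 18 other clock pathway genes tested in ganglia, after crush (left) and in cultured neurons against contralateral sham ganglia (right; the horizontal scales differ); filled points passed an adjusted p under 0.05. Nfil3 has the highest value on both sides, 1.91 and 3.03, while Timeless lies right of 0 after crush and left of it in the cultures.

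Deviations of log2 CPM from the group mean were compared between members over the 12 naive and injured libraries, 1 mouse each. Over all pairs of the 10 members, the highest values of Pearson r were 0.848 for Per2 with Dbp and 0.740 for Per3 with Nr1d2, and the lowest were -0.631 for Arntl with Cry1 and -0.605 for Cry1 with Nr1d1. These are descriptions over libraries that share their depth and their group means. The sham libraries are both sides of 4 mice in groups of 2, where the deviations of a group mirror each other, so no correlation is given for them. Over 11202 genes of at least 5 CPM on average, the deviations most like those of Arntl in ganglia were of Lmo4 (0.961), Snhg18 (0.956) and Neat1 (0.954), and those most opposite were of Mlxip (-0.948) and Tsc1 (-0.905). For Dbp the most alike were Arid2 (0.934), Casp8ap2 (0.923) and Ep300 (0.919) and the most opposite Ccdc136 (-0.959), Slc2a6 (-0.958) and Arpp21 (-0.955). The genes named for Arntl and Dbp are the extremes of that search, picked by r over 12 libraries, and were not tested.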

How the data were processed

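Per the submitters' processing notes, the authors trimmed reads with Trim Galore, aligned them with HISAT2 to mm10 and counted them with featureCounts. The library kit, per the labels' protocols, was TruSeq Stranded mRNA. The deposited tables hold whole-number counts per gene, 1 for naive and injured ganglia and 1 for neurons and sham ganglia, each with a table of deposited FPKM values that was not used for tests: its length is the gene span within 0.1% for 100% of 39651 genes. Symbols were found for 98.1% of gene identifiers. Here counts were filtered (filterByExpr, minimum count 10), scaled by TMM and tested with edgeR 4.0.16 in R 4.3.3 (quasi-likelihood, two-sided, Benjamini-Hochberg over all genes tested, called at adjusted p under 0.05), in separate fits for the 12 naive and injured, 6 neuron, 8 sham and all 14 libraries of the second table. CPM use TMM library sizes; the ± values are SD over libraries, and 95% intervals come from the edgeR standard errors. The test code was checked on simulated data. The labels number 1 mouse per library in the first table and among the cultured neurons. For the neurons this rests on the mouse number in the labels alone. Replicate numbers paired only the 2 sides of sham mice, which the labels take from 1 animal (correlation of deviations 0.229 in control and -0.159 in cKO mice). Reads shared by overlapping genes appear in both: Tsix equalled Xist in 16 female libraries. Alternatives were RLE factors, DESeq2 1.42.0, no filter, a replicate block, sex as a covariate and each replicate left out; 3 more, chosen after seeing the data, left out the 2 libraries not of the labelled sex, left out both naive libraries numbered 1, and subtracted Ube2n-ps1 from Clock. The members and lists were chosen with earlier results of these data known. All members are named, as are called genes of the other clock list that the text turns on; some genes are not reported here, and the list's counts leave them out.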

Additional observations from a re-analysis of the deposited data

Results flagged for a closer look

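Groups hold at most 3 libraries, so no single library was tested as an outlier. The effect of genotype was compared between the 5 settings for each member, 100 combinations of member and pair of settings, and in 4 of them every cKO library lay on one side of its controls in 1 setting and on the other side in the other. Dbp was lower in cKO in injured ganglia (log2 fold change -0.35) and higher in sham ipsilateral ganglia (0.34). The first value was -0.11 with sex by transcripts as a covariate, and the second ran from 0.21 without sham control 2 to 0.46 without sham control 1. Per3 was lower in cKO neurons (-0.50) and higher in sham ipsilateral cKO ganglia (0.24). Nr1d2 was lower in cKO neurons (-0.18) and higher in sham contralateral cKO ganglia (0.24). Clock was lower in cKO on the sham operated side (-0.10) and higher on the other side (0.15). The difference was not tested in any of the 4, 3 of which span different fits. With 2 sham mice per genotype 33.9% and 39.1% of all genes lay apart on the operated and the other side. In injured ganglia 8.72% and in cultured neurons 14.6% of all genes did. The share of all genes with such opposite separation was not computed.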

How the results depend on the processing

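Of 1411 member values under alternatives, 1284 kept their direction and side of the threshold, 44 lost a call, 8 gained one and 75 changed sign, none of those a called value. Of 151 counts of members called, 142 stayed within 1.5 times, where 0 against 0 was taken as unchanged. The 9 that moved were 8 of the 15 for crush in cKO and 1 of the 15 for crush in controls. The number called for crush in cKO was 1 with sex by transcripts as a covariate, 0 without the 2 libraries not of the labelled sex and 0 without both naive libraries numbered 1, 0 to 2 with each replicate left out and 3 with labelled sex as a covariate; for crush in controls it was 2 to 3 with each replicate left out. Signs changed under these settings: Nr1d1 for crush in controls with RLE factors (-0.001), DESeq2 (-0.001) and without the 2 libraries (-0.01); Arntl between naive genotypes with no filter (0.001); Cry1 for crush in cKO with labelled sex (0.01); Nr1d2 for average crush without the naive libraries numbered 1 (-0.010). With sex by transcripts, where injured cKO 1 is the single female injured cKO library, the difference of crush responses became -0.12 for Arntl, 0.04 for Clock, 0.06 for Per2 and 0.26 for Per3, and the genotype effect in injured ganglia -0.13 for Arntl, 0.19 for Per2 and 0.010 for Per3. That difference was 0.04 for Per3 without the 2 libraries, and 0.02 for Per3 and -0.005 for Arntl without the naive libraries numbered 1. The cause was not tested.

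Replicate numbers did not pair the naive and injured libraries (correlations of same-numbered deviations -0.418 to 0.412) or the neurons (0.0642 to 0.221). With a replicate block the naive genotype effect on Arntl was 0.01, Per1 passed for crush in controls (1.01, adjusted p = 0.0311) and Clock was lost on average (0.11, adjusted p = 0.0646). Blocking by mouse left 0 members called between sham sides.

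Values that changed sign when 1 replicate was left out had these ranges of log2 fold change. For crush in controls, Nr1d1 -0.01 to 0.02, Nr1d2 -0.11 to 0.04. For crush in cKO, Per3 -0.07 to 0.32, Cry1 -0.12 to 0.06, Nr1d2 -0.03 to 0.18. For crush on average, Nr1d2 -0.03 to 0.08. For the difference of crush responses, Per1 -0.70 to 0.007, Per3 -0.32 to 0.08, Arntl -0.12 to 0.24. For genotype in naive ganglia, Arntl -0.15 to 0.10, Per1 -0.19 to 0.51, Nr1d2 -0.14 to 0.01, Per2 -0.07 to 0.27, Nr1d1 -0.004 to 0.08. For genotype in injured ganglia, Arntl -0.13 to 0.20, Cry1 -0.09 to 0.002, Cry2 -0.11 to 0.07, Nr1d2 -0.05 to 0.16. For genotype in neurons, Arntl -0.08 to 0.02, Cry2 -0.10 to 0.01. For genotype on the sham operated side, Arntl -0.17 to 0.06, Per1 -0.007 to 0.43, Cry1 -0.03 to 0.12, Per2 -0.02 to 0.36. For genotype on the other side, Nr1d1 -0.05 to 0.09, Per2 -0.30 to 0.12, Per3 -0.09 to 0.10, Cry1 -0.14 to 0.05, Dbp -0.08 to 0.29, Cry2 -0.09 to 0.03. For sham side, Per2 -0.07 to 0.003, Nr1d1 -0.08 to 0.01, Dbp -0.01 to 0.17, Per3 -0.12 to 0.03, Cry2 -0.05 to 0.09. For neurons against ganglia, Per3 -0.006 to 0.17.

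With 2 or 3 libraries per group, differences smaller than the printed 95% intervals could not be resolved. Standard errors of the crush effect in controls ran from 0.0530 (Clock) to 0.325 (Per1), and Per3, Arntl and Per2, the lowest in counts per exon length, had 0.221, 0.201 and 0.194.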
